A study of Mus musculus with 6 samples.

Results

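Klf2 was examined beside 9 genes of blood vessel endothelium (Cldn5, Pecam1, Cdh5, Kdr, Flt1, Tek, Tie1, Esam and Egfl7) in RNA sequencing of fetal mouse cortex. These 10 genes were taken by symbol from the 45583 rows of the count table, and all 10 were among the 13741 genes with enough counts to be tested. Klf2 was chosen by its measured values: in an earlier analysis of these libraries it was among the 10 genes with the smallest unadjusted p in the comparison of bisphenol A (BPA) with vehicle. Its values in that comparison are therefore given as a description, without a test. Klf2 itself held the last rank inside that choice (rank 10, log2 fold change -1.14), after Wdr83os (rank 9, 0.70). The rank just outside was held by Pnoc (rank 11, -0.95). Genes of very low mean CPM were left out of these ranks. The other 9 genes are standard endothelial markers. The questions were whether Klf2 followed these genes from library to library, and how each of them stood in BPA against vehicle.

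The libraries came from the cortex of 6 male fetuses at GD15.5 (gestational day), all SRY+ and labelled WT, from dams of the Cyp19-EGFP strain. This strain carries an added copy of the aromatase gene Cyp19a1 on a bacterial artificial chromosome, with a green fluorescent protein gene in it. Vehicle dams (peanut oil, with ethanol per the study's methods) gave 3 fetuses, and dams injected under the skin with BPA (50 µg/kg, GD10.5 to GD14.5) gave 3. The labels name a fetus for each library and no litter, so fetuses of a group may share a dam, and p-values measure only the spread between these fetuses. Total counts ran from 5030652 to 7180835 in vehicle and from 3444601 to 6426857 in BPA. Levels are given as CPM (counts scaled to TMM library size). The floor set by a count of 0 was between 0.422 and 0.875 CPM, depending on the library, counting error only. Each of the 10 genes was detected in every library, and the lowest count was 11, for Klf2 in BPA replicate 3. The cortex was dissected whole, so endothelial cells were a minor part of the sample, and fewer endothelial cells cannot be told apart from less RNA per cell.

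Endothelial cells line the vessels that grow into the cortex from the surrounding plexus while neurons are being made. Growth of these vessels depends on vascular endothelial growth factor, read by the receptors of Kdr and Flt1, and on angiopoietins, read through Tek and its relative Tie1. Neighbouring cells are held together by Cdh5, Pecam1, Esam and Cldn5, the last being the main tight junction claudin of the blood-brain barrier. Klf2 encodes a zinc finger transcription factor that endothelial cells make in response to blood flow, through the kinases MEKK3, MEK5 and ERK5 and the MEF2 factors, and this route is held back by the cerebral cavernous malformation proteins.

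The 250 bases before the start sites of 3 of these genes are printed from RefSeq (GRCm38.p6), on the coding strand, because Cldn5 and Tek had the highest and the lowest correlation with Klf2 over the 6 libraries, before subtraction of group means. The windows are chr8:72318812-72319061 for Klf2, chr16:18776597-18776846 for Cldn5 and chr4:94739039-94739288 for Tek, all on the plus strand. Capitals mark matches, on either strand, to a MEF2 core (CTANNNNTA), an ETS core (CCGGAA), a GC box (GGGCGG) or a CACCC box (CCACCC).
Klf2: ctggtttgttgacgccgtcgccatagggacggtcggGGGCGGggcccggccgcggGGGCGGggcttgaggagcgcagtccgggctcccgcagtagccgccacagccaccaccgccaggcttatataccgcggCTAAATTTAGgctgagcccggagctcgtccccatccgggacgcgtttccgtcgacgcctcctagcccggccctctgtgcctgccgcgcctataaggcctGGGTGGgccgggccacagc
Cldn5: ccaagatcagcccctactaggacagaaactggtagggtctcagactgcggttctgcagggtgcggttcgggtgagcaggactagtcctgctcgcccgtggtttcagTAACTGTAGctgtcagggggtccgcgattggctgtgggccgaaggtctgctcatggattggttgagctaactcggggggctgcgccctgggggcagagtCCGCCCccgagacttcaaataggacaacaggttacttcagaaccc
Tek: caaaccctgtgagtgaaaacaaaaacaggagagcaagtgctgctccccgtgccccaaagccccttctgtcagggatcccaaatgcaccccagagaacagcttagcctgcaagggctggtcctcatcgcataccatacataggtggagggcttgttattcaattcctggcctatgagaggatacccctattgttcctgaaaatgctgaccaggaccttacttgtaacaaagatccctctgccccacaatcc
The Klf2 window held 2 MEF2 core matches on opposite strands that overlap each other, from 118 to 109 bases before the start site. It also held 2 GC boxes, beginning 214 and 195 bases before the start site, and 1 CACCC box, beginning 19 bases before it. The Cldn5 window held 1 MEF2 core, beginning 144 bases before its start site, and 1 GC box, while the Tek window held none of the 4 motifs. Of all 32851 RefSeq promoter windows of this length, 19.0% held the MEF2 core, 12.03% the ETS core, 32.7% the GC box and 28.1% the CACCC box. A promoter entry was matched for 7 of the 10 genes (Klf2, Cldn5, Kdr, Flt1, Tek, Tie1 and Egfl7). The MEF2 core was found in 3 of these 7 (Klf2, Cldn5 and Egfl7), the ETS core in Kdr, and the GC box and the CACCC box in 5 each. The GENCODE start of Klf2 (72319033) lies inside its window. These are matches of letters and not measured binding sites.

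Klf2 (ENSMUSG00000055148.7, GRCm38 chromosome 8, 72319033 to 72321656, plus strand) had the fewest counts of the 10 genes. It had 28, 46 and 32 counts in the vehicle libraries and 13, 16 and 11 in the BPA libraries. Scaled to library size these were 4.12, 6.48 and 6.31 CPM in vehicle and 2.04, 2.60 and 3.21 CPM in BPA. The groups did not overlap, and the narrowest gap was that between BPA replicate 3 and vehicle replicate 1. The counting intervals of these 2 libraries did overlap (95% exact Poisson, 1.60 to 5.74 CPM and 2.74 to 5.95 CPM). Group means were 5.63 CPM ± 1.32 for vehicle and 2.62 CPM ± 0.584 for BPA (SD, 3 libraries each). The edgeR fit placed Klf2 2.20-fold lower in BPA, a log2 fold change of -1.14 (SE 0.301). None of the 50-base words of the Klf2 transcripts occurred in transcripts of another gene.

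**Figure D1:**
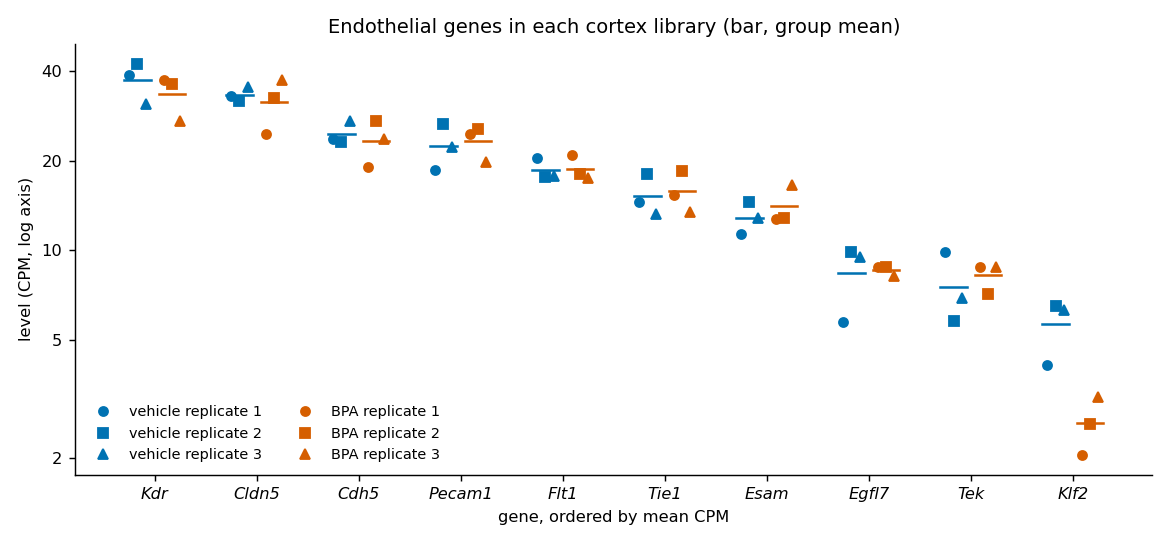
Level of each of the 10 endothelial genes in each library, in CPM on a log axis, with genes ordered by mean CPM; points are libraries and short bars are group means. Vehicle and BPA points are interleaved for the 9 genes from Kdr to Tek, while for Klf2 the 3 BPA libraries (2.04 to 3.21 CPM) lie below the 3 vehicle libraries (4.12 to 6.48 CPM).

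The growth factor receptors were not separated by treatment. Kdr (chromosome 5, 75932827 to 75978458), the main signalling receptor for vascular endothelial growth factor, was at 38.8, 42.5 and 31.0 CPM in vehicle and at 37.4, 36.2 and 27.1 CPM in BPA. Its means were 37.4 CPM ± 5.90 and 33.6 CPM ± 5.61 (SD, n = 3 each), a log2 fold change of -0.14 (SE 0.149). This was the largest difference among the genes lower in BPA apart from Klf2, and the ranges overlapped. Flt1 (chromosome 5, 147561604 to 147726011), whose product binds the same factor and limits its action, was at 20.4, 17.6 and 17.7 CPM in vehicle and at 20.9, 18.0 and 17.5 CPM in BPA (log2 fold change 0.02, SE 0.150). Its values over the 6 libraries varied no more than counting error alone would give.

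The angiopoietin receptor genes overlapped as well. Tek (chromosome 4, 94739289 to 94874976), which encodes the receptor TIE2, was at 9.85, 5.77 and 6.90 CPM in vehicle and at 8.79, 7.15 and 8.75 CPM in BPA. Vehicle replicates 1 and 2 were its highest and lowest libraries, and the log2 fold change was 0.12 (SE 0.237). Tie1 (chromosome 4, 118471191 to 118490061) was at 14.6, 18.0 and 13.2 CPM in vehicle and at 15.4, 18.5 and 13.4 CPM in BPA, nearly the same set of levels in both groups (log2 fold change 0.06, SE 0.177).

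Junction genes showed the same overlap. Cldn5 (chromosome 16, 18776847 to 18778262) was at 32.9, 31.8 and 35.5 CPM in vehicle and at 24.7, 32.7 and 37.3 CPM in BPA, so that a BPA library was the lowest and another BPA library the highest of the 6. Its log2 fold change was -0.10 (SE 0.148). Cdh5 (chromosome 8, 104101625 to 104144511), which encodes VE-cadherin, the adhesion molecule of endothelial adherens junctions, was at 23.7, 23.2 and 27.2 CPM in vehicle and at 19.0, 27.1 and 23.6 CPM in BPA (log2 fold change -0.08, SE 0.154). As for Cldn5, the lowest library was BPA replicate 1.

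Pecam1 (chromosome 11, 106654217 to 106750628), which encodes the adhesion molecule CD31, was at 18.7, 26.6 and 22.3 CPM in vehicle and at 24.7, 25.7 and 19.8 CPM in BPA (log2 fold change 0.07, SE 0.160). Esam (chromosome 9, 37528078 to 37538319), an adhesion molecule of endothelial tight junctions, averaged 12.9 CPM ± 1.59 in the vehicle and 14.1 CPM ± 2.22 in the BPA libraries (SD, 3 libraries each), from 77, 103 and 65 counts and from 81, 79 and 57 counts (log2 fold change 0.10, SE 0.180). For both genes the lowest library was vehicle replicate 1. Egfl7 (chromosome 2, 26580014 to 26593120), a secreted protein of growing vessels, was at 5.74, 9.85 and 9.47 CPM in vehicle and at 8.79, 8.78 and 8.17 CPM in BPA (log2 fold change 0.05, SE 0.230). Its BPA values lay within the vehicle range. Other genes held 5.33% of the 50-base words of Egfl7, among them Agpat2, which overlaps it on the opposite strand and had 3 to 6 counts per library.

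Over all 13741 genes, 0 had an adjusted p under 0.1 by the quasi-likelihood test of edgeR (0% of those tested), and the 9 other endothelial genes each had an adjusted p of 1. The likelihood ratio test of edgeR called 4 genes in all, DESeq2 3 and limma-voom 0. An unadjusted p under 0.05 was reached by 162 genes lower in BPA (1.18%) and by 140 higher (1.02%), and by 0 of the 9. Kdr had the smallest unadjusted p of the 9, at 0.347 by edgeR's quasi-likelihood method. All 3 BPA libraries lay below all 3 vehicle libraries for 3.56% of genes tested and above them for 3.19%, and this held for 0 of the 9. Of the 9 genes 3 were lower and 6 higher in BPA, and their median log2 fold change was 0.05, beside a median of 0.0016 over all genes tested.

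Per kilobase of annotated exon, Cldn5 stood far above the others in vehicle at 23.6 CPM per kb, followed by Cdh5 at 5.88. Their ranges over the 3 libraries overlapped neither each other nor the next gene. From Esam (4.49) through Kdr (4.15), Pecam1 (3.62), Tie1 (3.10), Klf2 (3.05), Egfl7 (2.33) and Tek (1.59) to Flt1 (1.38 CPM per kb), each gene overlapped the next. In BPA, Klf2 was at 1.42 CPM per kb and its range overlapped those of Tek (1.75) and Flt1 (1.39), the lowest of the 10 genes. Exon length was summed over all annotated transcripts, so a gene that uses short forms is understated.

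The summed level of the 9 other genes was 176, 190 and 176 CPM in vehicle and 172, 187 and 172 CPM in BPA. Means were 181 CPM ± 7.98 and 177 CPM ± 8.49 (SD, n = 3 each), and the groups overlapped. Klf2 was set against this total as its share of the counts of all 10 genes. The share was 2.29%, 3.30% and 3.46% in the vehicle libraries, with 95% Clopper-Pearson intervals of 1.52 to 3.29%, 2.42 to 4.37% and 2.38 to 4.85%. It was 1.17%, 1.37% and 1.83% in the BPA libraries, with intervals of 0.625 to 1.99%, 0.786 to 2.22% and 0.916 to 3.25%. As a description of a gene chosen for this contrast, Klf2 made up 3.01% ± 0.636 of the counts of these 10 genes in vehicle and 1.46% ± 0.336 in BPA (SD, n = 3 each), and the shares of the groups did not overlap. With the summed counts of Klf2 and 43 further endothelial genes as the denominator, the Klf2 share was 0.669%, 0.901% and 0.879% in vehicle. It was 0.308%, 0.373% and 0.480% in BPA. The 43 genes summed to 612 to 712 CPM in vehicle and 661 to 695 CPM in BPA. Plxnd1 alone averaged 203 and 197 CPM of these sums. Levels are those of whole cortex, so this denominator does not show the endothelial part alone. With the mean log2 CPM of the 9 genes as a covariate in the edgeR fit, the log2 fold change of Klf2 was -1.19 (SE 0.297).

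**Figure D2:**
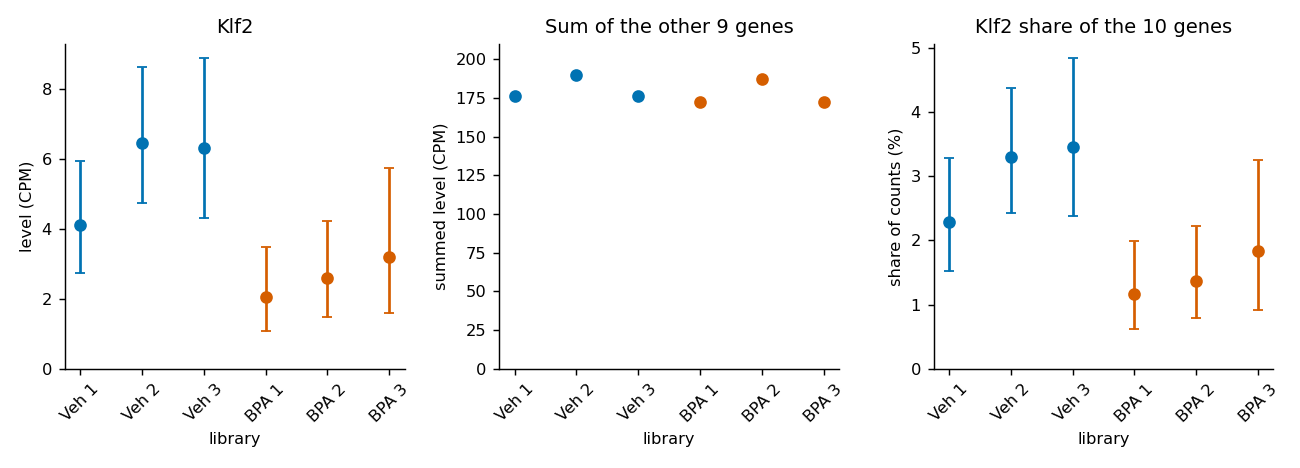
Klf2 level in CPM with 95% exact Poisson intervals (left), summed CPM of the other 9 genes (middle) and the Klf2 share of the counts of the 10 genes with 95% Clopper-Pearson intervals (right), for the 3 vehicle (Veh) and 3 BPA libraries; all axes start at 0. The summed level lies between 172 and 190 CPM in all 6 libraries, while the Klf2 share is 2.29 to 3.46% in vehicle and 1.17 to 1.83% in BPA.

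Gene by gene, Klf2 spanned 1.52 in log2 CPM over the 6 libraries, a span that includes the group difference on which it was selected. The other 9 genes each spanned from 0.25 (Flt1) to 0.75 (Egfl7). The coefficient of variation of the CPM was 45.7% for Klf2, where its counts alone would give 21.0%. For the other 9 it lay between 8.22% (Flt1) and 19.2% (Tek), where counting alone would give 7.17 to 15.2%. Kdr (15.7%, with 7.17% from counting) and Cldn5 (13.4%, with 7.50%) varied well beyond counting, while Egfl7 (17.3%, with 14.7%) and Esam (13.7%, with 11.6%) were close to it.

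Across the 6 libraries, Klf2 and the mean of the other 9 genes had a Pearson r of 0.067 and a Spearman rho of -0.26 on the log2 CPM scale, as a description. Without the 2 libraries farthest from the median of that mean (vehicle replicate 2 and BPA replicate 2), r was -0.31, and with group means subtracted it was 0.44. In both of these libraries the mean of the 9 genes was 4.22, the highest of their groups, while Klf2 was highest in vehicle replicate 2 and between the other two in BPA replicate 2. Since the Klf2 values of the groups did not overlap, the libraries formed 2 clusters along Klf2. The r values over all 6 libraries therefore carry the group difference on which Klf2 was selected, and the relation within groups is given as a description and was not tested.

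Taken gene by gene, the relations with Klf2 ran in both directions. Before subtraction of group means, Cldn5 had the highest r of the 9 at 0.52 and a rho of 0.26 (exact permutation p = 0.306 and 0.658), and its r was 0.28 without its 2 outermost libraries. Cdh5 was next with an r of 0.46 and a rho of 0.26 (exact permutation p = 0.364 and 0.658), and its r became -0.74 without its 2 outermost libraries, so the relation rested on them. At the other end, Tek had an r of -0.58 and a rho of -0.60 (exact permutation p = 0.211 and 0.242), and Flt1 an r of -0.50 and a rho of -0.54 (exact permutation p = 0.285 and 0.297). Without their own 2 outermost libraries, r was -0.63 for Tek and -0.41 for Flt1. Over the 9 relations, the Benjamini-Hochberg adjusted exact permutation p ranged from 0.819 to 0.940 for r and from 0.803 to 0.919 for rho (two-sided). The pairings took no account of group, so these p-values take in the group difference on which Klf2 was selected. They do not test the relation within groups.

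The remaining r values were 0.17 for Egfl7, 0.11 for Kdr, 0.056 for Esam, -0.036 for Pecam1 and -0.13 for Tie1. These also depended on single libraries. Without the 2 outermost libraries of each gene, r was 0.58 for Egfl7, 0.92 for Kdr, 0.61 for Esam, -0.19 for Pecam1 and -0.75 for Tie1. With group means subtracted the order of the genes was different. The centred r was then 0.86 for Esam, 0.68 for Egfl7, 0.64 for Cldn5, 0.48 for Cdh5, 0.23 for Pecam1, -0.04 for Tie1, -0.52 for Kdr, -0.69 for Tek and -0.96 for Flt1. Between r before and after subtraction of group means, Kdr, Esam and Egfl7 thus moved most, and Kdr and Pecam1 changed sign. Before subtraction, the median r of the 9 genes with Klf2 was 0.056, 5 of the 9 were positive, and the median over all 13740 other genes tested was -0.0015. Ranked by r with Klf2 among these 13740 genes, Cldn5 was at rank 1553 and Cdh5 at rank 1992, while Flt1 and Tek were at ranks 12079 and 12555. Among themselves the 9 genes also varied in both directions. Of their 36 pairs 13 had a positive r, the median was -0.10, and the extremes were Tek with Egfl7 at -0.80 and Pecam1 with Egfl7 at 0.79. Cldn5 and Cdh5, the pair with the highest r with Klf2 before subtraction, had an r of 0.78 with each other.

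**Figure D3:**
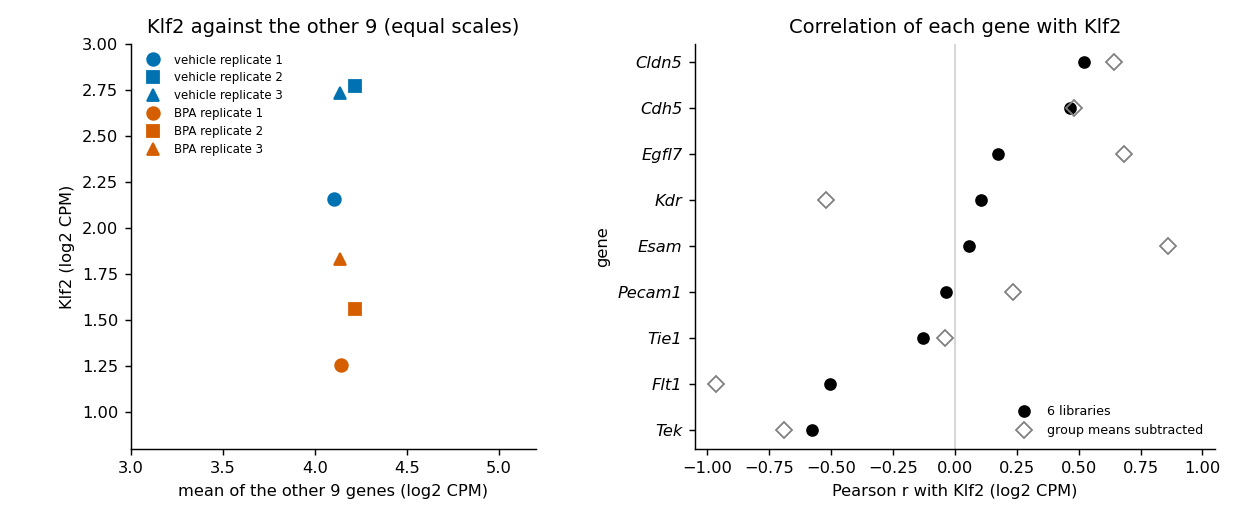
Left, Klf2 against the mean of the other 9 genes in each library, both in log2 CPM and with equal scales on the axes. Right, Pearson r of each of the 9 genes with Klf2 over the 6 libraries (filled points) and after subtracting group means (open diamonds). On the left Klf2 spans 1.52 and the mean 0.11, where a mean of 9 genes varies less than a single gene and Klf2 was selected on the group difference. On the right the filled points run from -0.58 for Tek to 0.52 for Cldn5.

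The genes most like Klf2 over the 6 libraries, among 11588 averaging at least 5 CPM, were Fam124a (r = 0.997), Arhgdig (0.986), Sat1 (0.985), Tmem150c (0.983) and Tceb2 (0.973). None of the 9 endothelial genes was among these 5. All 5 were lower in every BPA library than in every vehicle library, the contrast on which Klf2 was selected. Their log2 fold changes were smaller than that of Klf2, from -0.45 for Arhgdig to -0.21 for Tmem150c. The r values are a description of the closest of many genes over 6 points.

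Other endothelial genes lay on both sides of no difference. Of 45 further endothelial genes listed, 37 were tested, of which 17 were lower and 20 higher in BPA (median log2 fold change 0.01). The genes of this list with the highest levels were Plxnd1, a semaphorin receptor (203 and 197 CPM in vehicle and BPA, log2 fold change -0.04), Podxl, a surface sialomucin (0.03), and Ly6e (-0.07). At an unadjusted p under 0.05 stood 0 genes lower and 1 higher. That gene, Mmrn2, an endothelial matrix protein, was named after its values were seen. It was at 3.68, 3.52 and 4.34 CPM in vehicle and at 5.50, 5.85 and 6.42 CPM in BPA (log2 fold change 0.62, SE 0.246, adjusted p = 1 by edgeR's quasi-likelihood method). Groups did not overlap for 2 genes lower in BPA (Plvap and Tal1) and for 1 higher (Mmrn2). Over all genes tested, 1.02% were higher at that p, and 3.56% and 3.19% did not overlap, lower and higher.

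Genes of the barrier, of vessel type and of vascular signalling were also counted. Of 20 blood-brain barrier transporter and junction genes tested, 8 were lower and 12 higher in BPA (median 0.01), and among the most abundant the amino acid transporter subunits Slc7a5 and Slc3a2 had log2 fold changes of -0.14 and -0.13 and the junction scaffold Tjp1 of 0.03. Of 18 arterial, tip cell and venous genes, 7 were lower and 11 higher (median 0.02), with Efnb2 at -0.01, Notch1 at -0.03 and Nrp2 at 0.02. Many of these are also made by neural cells, so bulk levels do not show the endothelial part. Of 16 vascular ligands and cofactors, 7 were lower and 9 higher (median 0.02), with Wnt7b at 0.03, Vegfa at 0.05 and Wnt7a at -0.06. In this last list 1 gene lower in BPA stood at an unadjusted p under 0.05, Tspan12, a cofactor of the norrin receptor, named after its values were seen. It averaged 16.4 CPM in vehicle and 12.2 CPM in BPA without overlap (log2 fold change -0.44, SE 0.170, adjusted p = 1 by edgeR's quasi-likelihood method). Over all genes tested, 1.18% were lower at that p and 3.56% were lower without overlap. In the barrier list 1 gene was lower without overlap, Foxf2 (log2 fold change -0.24), also named after its values were seen.

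The route that induces Klf2 showed no gene past the test. Of 17 genes listed as upstream and tested, 5 were lower and 12 higher in BPA (median log2 fold change 0.02), with 0 at an unadjusted p under 0.05. Egfl7, described above as a member, is also in this list and is counted among the 12 higher. The list mixes genes that drive the route with genes that hold it back, so these counts give the route no direction. Levels are those of whole cortex and do not show the endothelial part. Mef2c and Mef2d, which encode MEF2 factors, were at 0.02 and 0.01, and Hdac5, a deacetylase that represses them, at 0.02. Groups did not overlap for Map3k3, which encodes MEKK3 (log2 fold change 0.16, higher in BPA), and for Pdcd10, a cerebral cavernous malformation gene (0.35, higher in BPA), both named after their values were seen, where 3.19% of all genes tested lay higher without overlap.

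Genes known to be regulated by Klf2 in endothelium were divided evenly. Of 20 tested, 10 were lower and 10 higher in BPA (median log2 fold change 0.0023), with 0 at an unadjusted p under 0.05. Kdr (lower) and Tek (higher), described above as members, are also counted in this list. Nos3, which encodes endothelial nitric oxide synthase, was at 4.12, 7.88 and 5.92 CPM in vehicle and at 5.34, 6.01 and 5.25 CPM in BPA (log2 fold change -0.11, SE 0.266). S1pr1, the receptor for sphingosine 1-phosphate, averaged 39.0 and 42.7 CPM (log2 fold change 0.13, SE 0.145). Neither gene separated the groups.

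Thbd, which encodes the anticoagulant thrombomodulin, was at 1.91, 2.39 and 5.32 CPM in vehicle and at 1.88, 1.79 and 1.46 CPM in BPA. Its BPA libraries lay below its vehicle libraries, vehicle replicate 1 by only a small margin, and vehicle replicate 3 stood far above all others. This held for 1 of the 20 genes tested in this list, beside 3.56% of all genes tested. The levels were low, with BPA replicate 3 at 1.46 CPM where the floor of that library was 0.875 CPM. The log2 fold change was -0.81 (SE 0.416), and edgeR's quasi-likelihood method gave an adjusted p of 1. The abundant genes of this list, Pfkfb3, a regulator of glycolysis, and Slc2a1, the glucose transporter of the barrier, were at log2 fold changes of 0.09 and 0.01.

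Within the KLF family of zinc finger factors, 14 genes were tested, of which 10 were lower and 4 higher in BPA. Their median log2 fold change, Klf2 included, was -0.13. At an unadjusted p under 0.05 stood 2 genes lower in BPA, Klf2, which was selected on this contrast, and Klf11. Klf11 averaged 34.6 CPM in vehicle and 27.5 CPM in BPA (log2 fold change -0.34, SE 0.139) and its groups overlapped. Groups did not overlap for Klf2, Klf5 (log2 fold change -0.50) and Klf8, where Klf5, Klf8 and Klf11 were named after their values were seen. Apart from the selected Klf2, this left 1 of 13 genes lower at that p and 2 of 13 lower without overlap, beside 1.18% and 3.56% of all genes tested. Klf4, the closest relative of Klf2 in endothelium, was at 1.91, 3.80 and 3.94 CPM in vehicle and at 2.20, 3.41 and 2.92 CPM in BPA (log2 fold change -0.17, SE 0.346). Its groups overlapped. The most abundant members, Klf7, Klf13 and Klf3, were at log2 fold changes of 0.09, -0.15 and 0.19. Of 25 immediate early genes tested, a class that answers stimulation and tissue handling, 15 were lower and 10 higher in BPA (median -0.03), with 0 at an unadjusted p under 0.05.

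**Figure D4:**
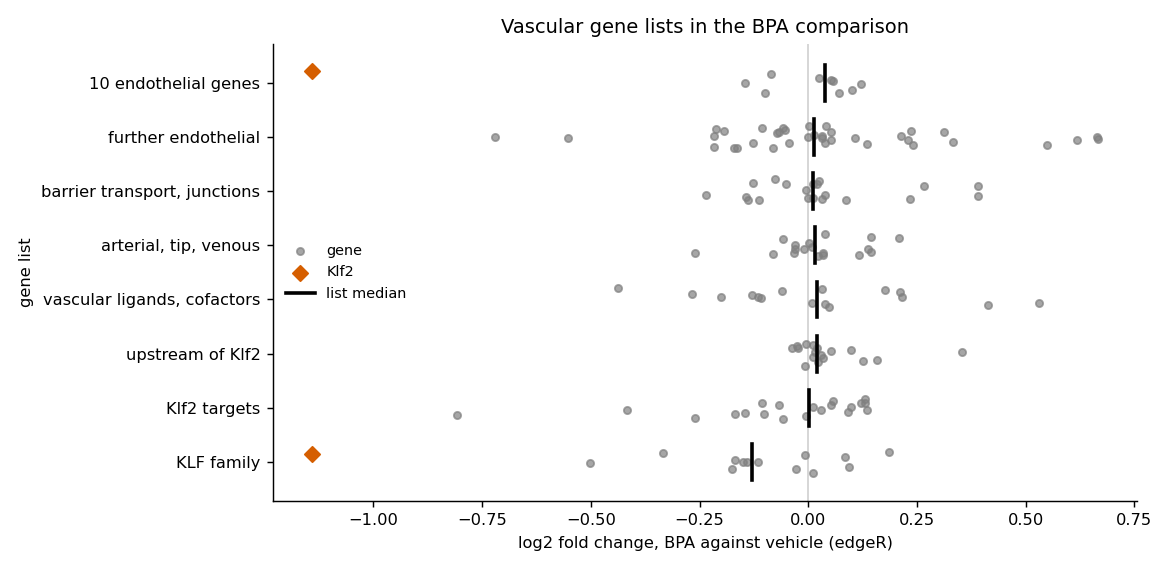
Log2 fold change of BPA against vehicle from the edgeR fit for each gene of 8 vascular gene lists; points are genes, orange diamonds are Klf2 and vertical bars are list medians. Medians lie between 0.00 and 0.04 in 7 lists and at -0.13 in the KLF family, and Klf2, the gene selected on this contrast, is at -1.14.

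Markers of other cell types were summed in each library. Ventral telencephalon markers did not overlap between the groups, at 1577 to 1862 CPM in vehicle and 1383 to 1525 CPM in BPA. Of these genes 18 of 18 were lower in BPA (49.5% of all genes). At an unadjusted p under 0.05 stood 9 of them (1.18% of all genes), and 14 were lower without overlap (3.56% of all genes). That list was written with earlier results of these data known. It includes Nkx2-1, Lhx8 and Gbx1, at ranks 2, 4 and 5 by unadjusted p, so its counts are a description and no test. Summed pericyte and mural markers (13 of 18 tested) were at 251 to 260 CPM and 240 to 248 CPM, ranges that lay close together without overlap. Of the tested genes 9 were lower and 4 higher, with 0 at an unadjusted p under 0.05. Taken singly, 0 of them lay lower and 0 higher without overlap. Meningeal fibroblast markers (11 of 16 tested) overlapped, at 157 to 309 CPM and 163 to 272 CPM, as did erythroid markers (7 of 16 tested) at 287 to 599 CPM and 334 to 417 CPM. Microglial and leukocyte markers (16 of 20 tested), with the T cell gene Cd3e at 0, were at 124 to 160 CPM and 137 to 142 CPM. Choroid plexus markers were high in the 2 libraries that also had the highest sums of the 9 endothelial genes, at 252 CPM in vehicle replicate 2 and 398 CPM in BPA replicate 2, and at 28.4 to 29.8 CPM in the other 4. Cortical plate and progenitor markers overlapped at 10912 to 11109 CPM and 10526 to 10998 CPM. The part of these cell types in the Klf2 result was not tested. Without vehicle replicate 2 and BPA replicate 2, the log2 fold change of Klf2 was -1.03.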

How the data were processed

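The authors deposited 1 table of read counts per gene for 6 libraries. According to the study's methods, strand-specific libraries were read as 50-base single ends, aligned to GRCm38 and counted on GENCODE models with featureCounts, and the submitters' processing notes name TopHat2 2.0.14, StringTie 1.2.4 and edgeR 3.14.2. Strand and multimapping options of the counting are not given in the sources used here. The study's results section gives a later fetal age than the labels, which were followed. Replicates were numbered in accession order and pair no samples.

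Analysis of the counts used R 4.3.3. Genes that passed filterByExpr (minimum count 10, minimum total 15) were scaled by TMM and compared by the quasi-likelihood test of edgeR 4.0.16 without covariates, with Benjamini-Hochberg adjustment over all 13741 genes and a threshold of 0.1. CPM used TMM-scaled library sizes, and log2 CPM a prior count of 2. Correlations were tested by exact permutation (two-sided, 720 pairings). Intervals and floors (3 counts) cover counting error only. Coordinates and exons were matched by symbol to GENCODE M21 and promoters to RefSeq. Scripts were tested on simulated data.

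The members and all gene lists were chosen with earlier results of these data known. Genes named are the 10 members, the 3 most abundant tested genes of each vascular list, the 5 genes most correlated with Klf2, and Nos3, Thbd, S1pr1 and Klf4, with exceptions stated. Alternatives were DESeq2 1.42.0, limma-voom (limma 3.58.1), the likelihood ratio test, other scalings, filters and prior counts, a covariate, and omission of each library. Thinning to the smallest total (20 draws) and omission of vehicle replicate 2 with BPA replicate 2 were chosen after seeing the data.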

Additional observations from a re-analysis of the deposited data

How the results depend on the processing

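Klf2 was selected on this contrast and its groups do not overlap, so its constant sign is no sign of stability. Over 17 alternatives its log2 fold change ran from -1.33 (without vehicle replicate 1) to -0.98 (without BPA replicate 1), and a median of -1.13 with all libraries thinned to the smallest total, where 20 draws ran from -1.38 to -0.75. The ratio of its share of the 10 genes' counts, BPA over vehicle, was 0.483 and lay between 0.422 and 0.531 with a library left out. Genes past the adjusted threshold, 0 in the reported fit, were 3 with DESeq2, 4 with the likelihood ratio test and 19 without a filter. There were 2 with the mean of the other 9 genes as a covariate (Nkx2-1 and Thoc7). Without vehicle replicate 2 and BPA replicate 2 there were 15, and with 1 library left out 0 to 1. The median log2 fold change of the other 9 genes lay between -0.0532 and 0.0639 with a library left out and was -0.0186 after thinning. The sign turned 13 times for single genes. Leaving out each library in turn gave log2 fold changes of -0.220 to 0.0598 for Cldn5, -0.0532 to 0.220 for Pecam1, -0.232 to 0.0553 for Cdh5, -0.0648 to 0.0999 for Flt1, -0.0536 to 0.380 for Tek, -0.0804 to 0.200 for Tie1, -0.0132 to 0.201 for Esam and -0.166 to 0.213 for Egfl7, and Flt1 was at -0.0276 after thinning. Kdr kept its sign. The r of Klf2 with the mean of the 9 genes, 0.067 in all 6 libraries, was 0.44 with group means subtracted and ran from -0.49 (without vehicle replicate 2) to 0.46 (without BPA replicate 2), and the median r with the single genes from -0.28 to 0.18, so that the sign depended on which library was left out. The cause was not tested. No paired analysis was possible because the labels give no replicate numbers shared between the groups. Klf2 had 11 to 46 counts per library, which limits the precision of its level in each.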
